A study of Arabidopsis thaliana with 6 samples.

Results

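In mature leaves of Col-0, 150 genes were close to silent that were counted in every *flpl1* plant. The genes were chosen by their counts in these same libraries. A gene was taken when its counts summed over the 3 Col-0 libraries came to at most 3 and each of the 3 *flpl1* libraries held at least 10. The 150 genes are 0.465% of the 32243 genes listed in the tables and 1.29% of the 11638 listed genes with at most 3 Col-0 counts. Of those 11638 genes, 9751 (83.8%) had 0 counts in *flpl1* too. The same rule turned around, with *flpl1* silent, took 79 genes. The *flpl1* line (C30-81-as6) is a late-flowering mutant with petioleless leaves, obtained from Col-0 seeds by carbon ion irradiation, that carries an additional copy of Chr. 2. Col-0 is its wild type. RNA was sequenced from fully mature leaves of 3 individual plants of each group at the same age, 1 library per plant. The *flpl1* plants had been checked for the phenotype and for additional DNA by flow cytometry. Since *flpl1* flowers later, plants of the same age can be at different stages, and stage and genotype cannot be told apart here. As a model *flpl1* is 1 selected line, and it also holds other mutations and translocations, so the extra chromosome cannot be told apart from them.

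The values are raw read counts and FPKM, the count divided by the exonic size of the gene and by the sum of the counts of the library. Library totals lay between 20049387 and 24081121 for *flpl1* and between 19465078 and 24633070 for Col-0. Levels summed over genes are given as CPM, the count scaled to a library total of 1000000. A gene with 0 counts in the Col-0 libraries can have a level of up to 0.0445 CPM, which is 3 counts over the group. Silent means here that few reads were seen at this depth. Because the rule chose the genes on these counts, the difference between *flpl1* and Col-0 is given for them as a description, without a test. The libraries are of whole leaf tissue, in which fewer cells of a type and less RNA per cell cannot be told apart. The 8 leaf genes checked against the label, among them genes of Rubisco and of the light-harvesting proteins, were all expressed, and their summed FPKM was 47782 to 50797 in *flpl1* and 19293 to 38442 in Col-0. The list of floral markers summed to an FPKM of 33.6 to 38.9 in Col-0 and 18.2 to 24.2 in *flpl1*, although single genes of it went the other way. Most of this sum was 1 gene, *SEP4*, with 23.9, 33.4 and 29.6 in Col-0 and 21.6, 15.1 and 16.3 in *flpl1*. The pollen list summed to an FPKM of 4.66 to 10.8 in Col-0 and 0.07 to 0.97 in *flpl1*. In Col-0 most of it was *VGD1*, with 5.9, 9.98 and 3.87. The part of floral or pollen tissue in the results below was not tested.

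A mature leaf has finished most of its cell division and expansion. Genes of the cell cycle, of wall loosening and of epidermal lipid deposition are known to be active mainly in young, growing organs, and genes of the secondary wall in differentiating xylem. Other genes are kept low in leaves until a pathogen or a hormone induces them. Cyclins and cyclin-dependent kinases drive the division cycle, xyloglucan endotransglucosylases cut and rejoin wall polymers, and fatty acyl-CoA reductases and desaturases shape the lipids of the plant surface.

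The genes together took 10445, 10457 and 7035 counts in replicates 1, 2 and 3 of *flpl1*, whereas the Col-0 replicates had 111, 48 and 62. Scaled to the library total this was 434, 522 and 317 CPM against 4.51, 2.06 and 3.19 CPM. Col-0 replicate 1 held the most, with a count in 67 of the 150 genes against 34 and 45 in the other two libraries. Without that library, and with the same ceiling summed over the other two, the rule took 276 genes, the 150 among them. There were 40 genes with 0 counts in all Col-0 libraries, 38 with 1 count, 33 with 2 and 39 with 3. The limits cut through a continuous cloud of genes, as the plot of the rule shows. At the upper limit for Col-0, 26 genes with 4 Col-0 counts met the floor in *flpl1*, among them *PCNA1*, the sliding clamp of DNA replication, with 253, 160 and 119 counts in *flpl1* against 2, 1 and 1 in Col-0. *AT3G52630* (95, 51 and 38 against 2, 1 and 1) and *AT3G43715* (92, 68 and 84 against 3, 0 and 1) also lay just outside. The genes of highest FPKM just inside that limit were *AT1G06360*, *PDF1.2c* and *AT2G18969*, described below.

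**Figure D1:**
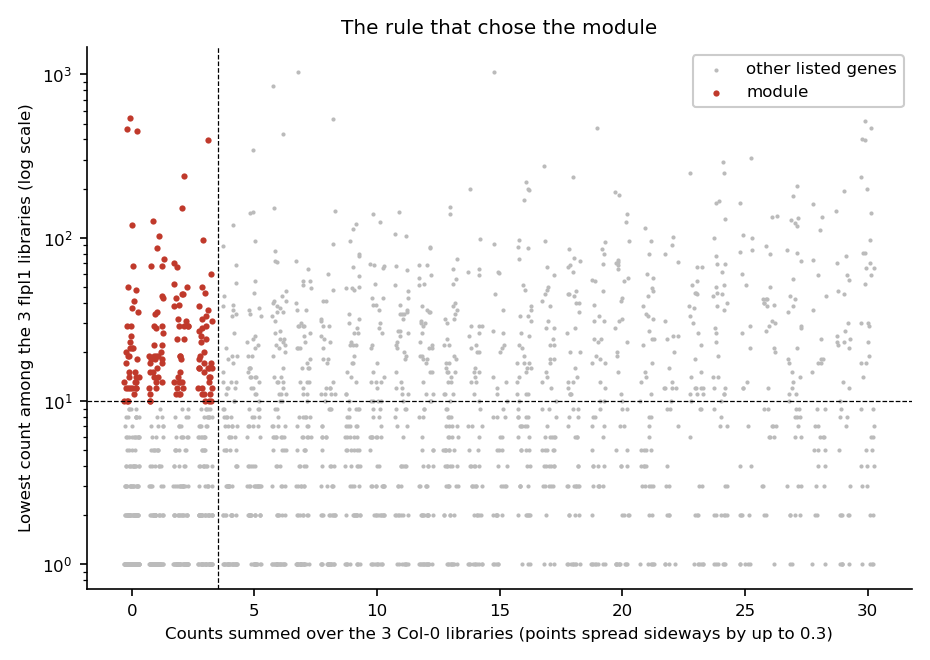
Each point is a listed gene, with its counts summed over the Col-0 libraries (0 to 30 shown) against its lowest count among the *flpl1* libraries (log scale, genes with at least 1 count shown). The 150 genes of the module lie in the upper left corner, cut by dashed lines at the limits of 3 and 10 counts, and 26 genes with 4 Col-0 counts continue them to the right.

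At the floor in *flpl1*, 8 genes had a lowest count of 10, and 12 genes with a lowest count of 9 were left out. Just inside were *AT5G26790* (15, 10 and 11 counts in *flpl1*, 1, 0 and 0 in Col-0), *AT2G18010* (16, 12 and 10 against 2, 0 and 1) and *IQD10* (12, 10 and 18 against 0, 0 and 0). Just outside were *AT1G12570* (9, 53 and 25 against 0, 0 and 3), the receptor kinase gene *MRLK* (38, 17 and 9 against 0, 2 and 1) and *AT4G34790* (36, 9 and 11 against 2, 0 and 0). Each of these outer genes missed the floor in 1 plant. The inner genes shown have the fewest *flpl1* counts at that limit and the outer ones the most, so the 2 sets are not compared.

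Most of the genes were low in *flpl1* too. Their mean FPKM in *flpl1* ran from 0.24 to 39.4 with a median of 1.26, while the 17726 genes with at least 10 counts in each *flpl1* library had a median of 11.1. A mean FPKM of at least 1 was reached by 96 genes, of at least 5 by 15 and of at least 10 by 9. The 10 genes of highest FPKM gave 40.3%, 46.7% and 38.7% of the counts of the module in the 3 *flpl1* libraries. The 3 plants of *flpl1* differed from each other. The ratio of the highest to the lowest plant, in CPM, was 1.91 in the median and went up to 16.8. The lowest value was in replicate 3 for 88 genes, in replicate 1 for 41 and in replicate 2 for 21.

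The highest level was that of *GRP9* (AT2G05440, Chr. 2, 1993082 to 1994166), a gene for a glycine-rich protein. Its counts were 646, 695 and 542 in *flpl1* and 0 in each Col-0 library, with an FPKM of 39.4 ± 7.37 (SD, n = 3) in *flpl1*. Set against 3 counts over the Col-0 group this is at least 637-fold higher. Among the genes with 0 counts in Col-0, *LTL1* (AT3G04290, Chr. 3, 1133320 to 1136316), which encodes a lipase, had the largest such bound, at least 690-fold, from 563, 1028 and 449 counts. *AT1G31690* (Chr. 1, 11343980 to 11347767), a copper amine oxidase gene of a family that oxidizes polyamines, had 466, 726 and 540 counts against 0, 0 and 0, at least 586-fold. In these 3 genes the plants of *flpl1* stood within a factor of 2.54 of each other. Over the 40 genes with 0 Col-0 counts the bound ran from 13.2 to 690, with a median of 26.2. These bounds take the *flpl1* counts as they are and do not include the spread between plants.

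Other genes of high level had a few Col-0 counts, and their ratios carry wide counting intervals (exact, 95%, which leave out the spread between plants). *AT3G16670* (Chr. 3, 5681419 to 5682331), of the pollen Ole e 1 and extensin family, had 869, 562 and 237 counts in *flpl1* against 2, 0 and 0 in Col-0, a ratio of 847 (234 to 6998). *GER3* (AT5G20630, Chr. 5, 6975104 to 6975993), a germin-like protein of the apoplast, had 494, 441 and 29 counts against 1, 0 and 0. The *GER3* counts of *flpl1* replicate 3 were far below those of the other 2 plants, the widest spread of all 150 genes (16.8-fold in CPM). The unnamed genes *AT1G11850* (164, 169 and 102 against 0, 1 and 0), *AT5G50335* (191, 79 and 74 against 1, 0 and 0) and *AT2G01913* (83, 69 and 43 against 0, 0 and 1) encode uncharacterized proteins. *AT5G24580*, of a heavy metal transport family, had 119, 197 and 147 counts against 0, 0 and 0, and *AT3G12710*, of a DNA glycosylase family, 137, 127 and 143 against 0, 0 and 1. In all of these the lowest *flpl1* plant was well above the highest Col-0 plant, which the rule required.

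**Figure D2:**
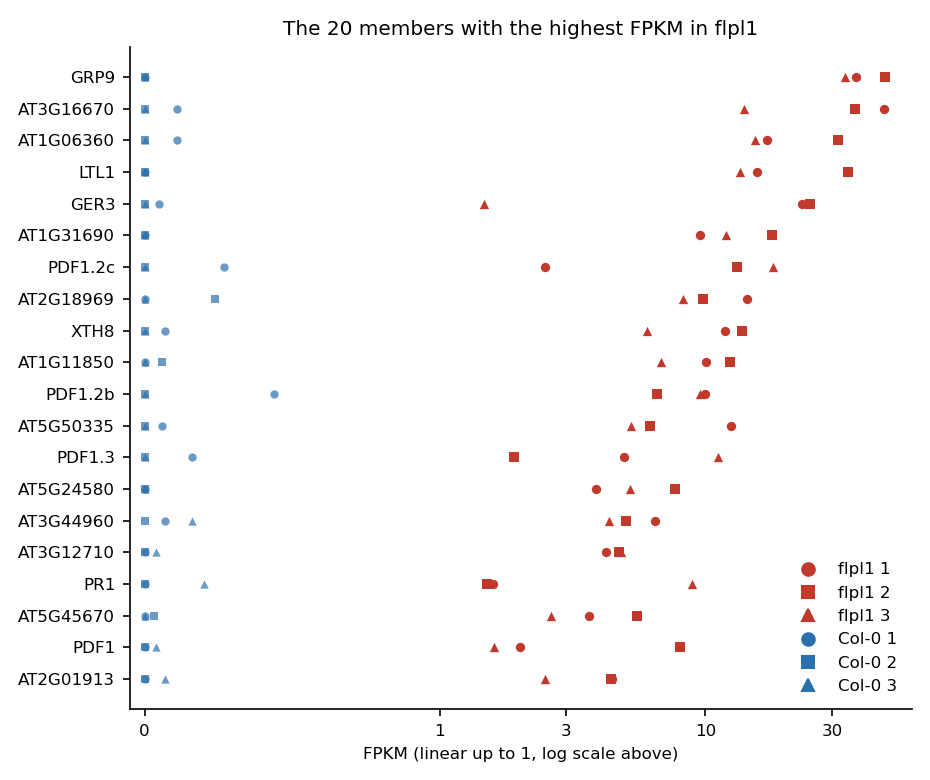
FPKM of the 20 genes of the module with the highest mean FPKM in *flpl1*, one symbol per library (red *flpl1*, blue Col-0, shape for the replicate number), on an axis that is linear up to 1 and logarithmic above. *GRP9* is highest at 39.4 ± 7.37 (SD, n = 3), and *GER3*, *PDF1.2c*, *PDF1.3* and *PR1* show the widest spread between *flpl1* plants.

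The genes were sorted by the GO terms of the tables and by RefSeq descriptions into 8 role groups. These hold 72 of the 150 genes (9 of them in more than 1 group) and leave 78 without a group. No GO term was given for 68 genes (45.3%, against 44.2% of all listed genes and 32.0% of the genes with at least 10 counts in each *flpl1* library), and 29 encode uncharacterized proteins. Of the genes, 148 were protein coding (98.7%), close to the 98.2% of the genes with at least 10 counts in each *flpl1* library. Of all listed genes 82.8% were coding, and of the 11638 genes with at most 3 Col-0 counts 58.0%. The exceptions were the pseudogene *AT4G04530* (24, 19 and 34 counts against 0, 0 and 1) and *AT4G32785*, which RefSeq does not list. One coding gene, *AT5G48050*, is described as a copia-like retrotransposon polyprotein, with 12, 19 and 19 counts against 0, 0 and 1.

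Cell division formed the largest group, with 15 genes (10% of the module, against 3.38% of the genes with at least 10 counts in each *flpl1* library). They cover several steps of the cycle. *AT1G07270* encodes a Cdc6 protein, which licenses replication origins, and had 22, 22 and 12 counts in *flpl1* against 0, 0 and 0 in Col-0. *MCM10*, which acts at the start of replication, had 141, 76 and 70 counts against 1, 0 and 1. The cell cycle drivers were cyclin *CYCB1;4* (157, 90 and 66 against 2, 0 and 0), cyclin *CYCA2;4* (20, 23 and 19 against 1, 0 and 0) and the plant-specific kinase *CDKB1;2* (57, 38 and 13 against 2, 0 and 0). The chromosome genes were a shugoshin gene, *AT3G44960*, whose relatives protect the cohesion of centromeres (97, 63 and 60 against 1, 0 and 2), the cohesin subunit *SYN3* (127, 74 and 52 against 2, 0 and 0), the condensin subunit *EMB2795* (82, 45 and 49 against 0, 1 and 1) and the histone kinase *Haspin* (21, 16 and 13 against 0, 1 and 0).

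The group also held inhibitors and genes of cytokinesis. *UVI4*, known as an inhibitor of the anaphase-promoting complex, had 81, 22 and 35 counts against 0, 0 and 1, and *AT5G40460*, of the SIAMESE-related inhibitors of cyclin-dependent kinases, 39, 14 and 13 against 2, 0 and 0. *MKK6*, a kinase of the cytokinesis pathway, had 61, 43 and 24 counts against 0, 1 and 1. *IQD6* (45, 46 and 20 against 1, 0 and 2) and *QWRF4* (12, 13 and 14 against 0, 0 and 0) belong to families of microtubule-associated proteins, and *AT3G51280* (108, 80 and 50 against 2, 1 and 0) to the tetratricopeptide repeat proteins. Summed over the 15 genes, the level was 44.4, 33.2 and 22.97 CPM in the *flpl1* plants and at most 0.568 in a Col-0 plant. *flpl1* replicate 1 was highest for 11 of the 15 genes, replicate 2 for 4 and replicate 3 for 0. On Chr. 2 lay 7 of the 15, and the number for each other group is given below with the chromosomes.

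Outside the module, genes of cell division could be tested, since the rule did not choose them. Of the 595 tested, 209 (35.1%) were upregulated and 33 (5.55%) downregulated by edgeR's quasi-likelihood test, with a Benjamini-Hochberg adjusted p under 0.05 and at least a 2-fold change, while over all 18638 genes tested 19.8% were upregulated and 14.4% downregulated. The median log2 fold change of the group was 0.45, that of all tested genes 0.00. Of the module itself 145 genes passed the filter on low counts and all were called upregulated, against those 19.8%, and nothing is read from this because the rule used the same contrast. The 5 that did not pass were *ACO1*, *AT4G26580*, *AT4G32780*, *AT5G19110* and *AT5G49130*.

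Promoters of the module were searched on both strands, in the 250 bases before the RefSeq start (TAIR10.1) of 148 of the genes, for short motifs known from growing tissue and defence. An E2F site, bound by regulators of the G1 to S transition (TTTCCCGC, TTTGGCGC, TTTCGCGC or TTTGCCGC), was present in 7 promoters (4.73%) and in 1.41% of the 27443 promoters of coding genes. In the cell division group 2 of 15 held it, and they are shown because they carry the motif in 1 and in 3 copies, capitals marking the E2F site in either orientation.
AT1G07270 (chr1:2233018-2233267, minus strand): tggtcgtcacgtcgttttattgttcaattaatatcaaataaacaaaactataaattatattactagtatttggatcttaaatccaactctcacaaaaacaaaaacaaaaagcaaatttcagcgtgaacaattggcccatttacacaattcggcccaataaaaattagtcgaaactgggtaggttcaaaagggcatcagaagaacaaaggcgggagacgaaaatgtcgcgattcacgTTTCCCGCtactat
AT5G40460 (chr5:16201892-16202141, plus strand): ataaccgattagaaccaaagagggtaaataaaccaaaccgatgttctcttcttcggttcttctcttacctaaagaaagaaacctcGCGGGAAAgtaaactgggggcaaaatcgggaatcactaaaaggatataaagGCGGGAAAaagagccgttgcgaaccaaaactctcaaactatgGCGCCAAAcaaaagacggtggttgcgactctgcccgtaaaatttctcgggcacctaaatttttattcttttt
The mitosis-specific activator core CNAACGG was in 7 of the promoters (4.73%, against 4.50% of all), and in 0 of the 15 of the cell division group. TATAAA, the TATA box, was in 68 (45.9% against 47.3%). A match is only a match of letters.

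The genes of the cell wall numbered 10 and held 61.2, 59.5 and 27.7 CPM in *flpl1* and at most 0.257 in a Col-0 plant. They made up 6.67% of the module, against 3.20% of the genes with at least 10 counts in each *flpl1* library. *AT3G16670*, described above and placed here by its description, held 36.1, 28.0 and 10.7 CPM of the group. Replicate 3 of *flpl1* had less than the other 2 plants, in the sum and in *AT3G16670*. *XTH8* had 323, 313 and 151 counts against 2, 0 and 0 and *XTH15* 13, 31 and 14 against 0, 0 and 0, both for enzymes that remodel xyloglucan. *PRP2*, a proline-rich wall protein, had 111, 125 and 67 counts against 0, 0 and 1, and the proline-rich *AT3G49300* 16, 30 and 12 against 0, 0 and 2. The cellulase family gene *GH9B13* had 29, 34 and 37 counts against 0, 0 and 0, the pectin methylesterase inhibitor family gene *AT3G47400* 41, 29 and 29 against 1, 0 and 1, and laccase *LAC10* 33, 29 and 36 against 1, 0 and 0. For these 3 genes the *flpl1* plants lay close together. The pectin lyase-like gene *AT1G10640* (53, 65 and 19 against 0, 0 and 0) has no GO term. It was left out of the group because the search of the descriptions was case-sensitive. The wall genes outside the module were sorted by the same search.

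The transcription factors *MYB83* and *NAC010* of this group act on the secondary wall. *MYB83*, known with *MYB46* as a switch of secondary wall formation, had 17, 20 and 21 counts in *flpl1* against 0, 0 and 0 in Col-0, and *NAC010* 22, 19 and 11 against 0, 2 and 1. *MYB83* is 1 of 14 genes of a list of xylem and secondary wall markers. Of the 13 others, 9 were tested and 9 were upregulated, 0 downregulated, with a median log2 fold change of 3.86. *CESA8*, a cellulose synthase subunit of the secondary wall, had 275, 378 and 295 counts in *flpl1* against 28, 7 and 9 in Col-0 (log2 fold change 4.61, standard error 0.49, edgeR adjusted p = 0.000264). *XCP2*, a protease of xylem vessels, had the most counts of the list, 420, 807 and 575 against 101, 48 and 35 (log2 fold change 3.50, standard error 0.45, edgeR adjusted p = 0.000573). The list summed to an FPKM of 36.8 to 73.9 in *flpl1* and 3.15 to 6.76 in Col-0, without overlap, and the part of xylem cells in the values of the cell wall group was not tested. Untested for few counts were *NST1*, *NST3*, *VND7* and *MYB46*. Among all wall genes outside the module, 224 of 609 (36.8%) were upregulated and 87 (14.3%) downregulated.

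**Figure D3:**
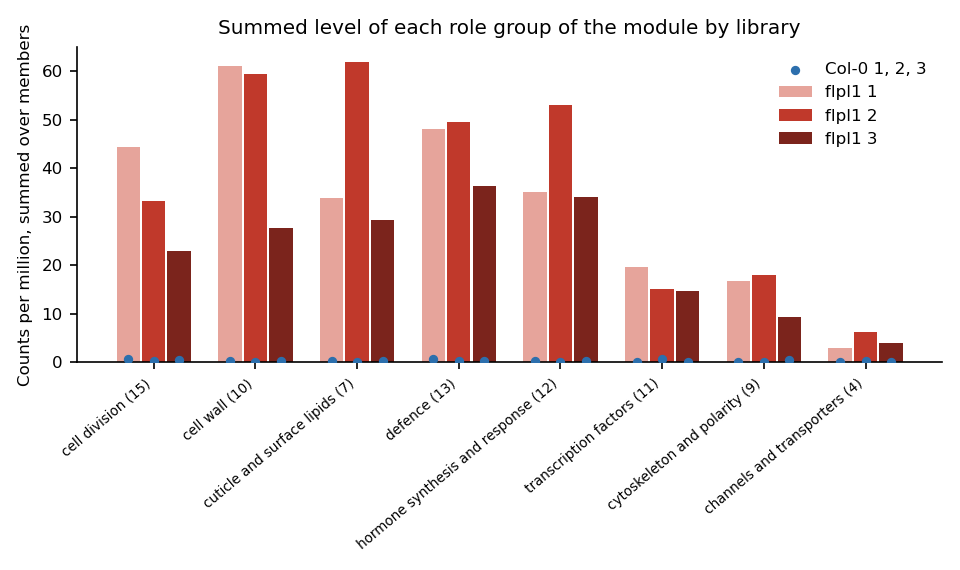
CPM summed over the genes of each role group (number of genes in brackets), with a bar for each *flpl1* plant and a blue point for each Col-0 plant. The cell wall and cuticle groups reach 61.2 and 61.9 in their highest plant, and Col-0 stays below 1 in each group.

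Genes of the cuticle and surface lipids numbered 7 (4.67% of the module, against 0.908% of the genes with at least 10 counts in each *flpl1* library). The group was highest in *flpl1* replicate 2, with 33.97, 61.9 and 29.2 CPM in replicates 1, 2 and 3 and at most 0.244 in Col-0. *AT1G06360* (Chr. 1, 1938963 to 1940459), a fatty acid desaturase gene, had 472, 729 and 394 counts in *flpl1* against 3, 0 and 0 in Col-0. Its relative *ADS1* had 58, 69 and 41 against 0, 0 and 0. *CER4*, the reductase that makes the primary alcohols of leaf wax, had 58, 51 and 45 counts against 0, 0 and 2. *PDF1*, protodermal factor 1, a marker of the outermost cell layer of the shoot, had 60, 200 and 44 against 0, 0 and 1. The spread between plants was small in *CER4* and 5.03-fold in *PDF1*. The other members were the lipase family gene *AT5G45670* (130, 164 and 86 against 0, 1 and 0), the lipid transfer family gene *AT1G12100* (14, 12 and 26 against 0, 0 and 0) and the fatty acid hydroxylase family gene *AT2G37700* (26, 17 and 13 against 3, 0 and 0). Of such genes outside the module 68 of 161 tested (42.2%) were upregulated and 19 (11.8%) downregulated.

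The L1 box (TAAATGCA or TAAATGTA), a motif of genes of the outer cell layer, was in 11 promoters of the module (7.43%, against 4.49% of all coding promoters). In the cuticle group 1 of 7 promoters held it. The promoter of *AT1G06360* is shown as the most highly counted gene that holds it, capitals marking the L1 box, which reads on the opposite strand.
AT1G06360 (chr1:1940497-1940746, minus strand): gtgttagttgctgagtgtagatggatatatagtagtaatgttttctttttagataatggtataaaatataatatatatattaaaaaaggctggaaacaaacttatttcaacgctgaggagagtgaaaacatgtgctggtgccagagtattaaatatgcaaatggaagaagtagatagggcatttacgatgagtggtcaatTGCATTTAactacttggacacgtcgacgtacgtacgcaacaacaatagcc

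A regulator of stomatal density and a gene of the epidermal patterning factor-like family lay in the module too. *SDD1*, a subtilase that limits stomatal density, had 42, 63 and 12 counts in *flpl1* against 0, 0 and 0 in Col-0, and *AT4G37810*, of the epidermal patterning factor-like peptides, 29, 26 and 21 against 0, 0 and 0. Of the guard cell and stomatal lineage markers outside the module 5 were tested, of which 2 were upregulated, 0 downregulated and 3 not called. *EPF1*, a peptide made by young stomatal precursors, had 47, 34 and 26 counts against 3, 4 and 2 (log2 fold change 3.69, standard error 0.44, edgeR adjusted p = 0.000423). *TMM*, a receptor of stomatal patterning, had 41, 60 and 35 counts against 19, 33 and 22 (log2 fold change 1.08, standard error 0.38, edgeR adjusted p = 0.0401). *SPCH* (3, 11 and 6 against 0, 0 and 0) and *MUTE* (6, 9 and 4 against 0, 0 and 0), the factors that start and end the precursor stage, were below the filter. The genes not called were *FAMA*, active in late guard cell formation (573, 462 and 546 counts against 490, 627 and 421), *MYB60*, a factor of guard cells (439, 364 and 308 against 284, 302 and 233), and the potassium channel gene *KAT1* (547, 490 and 567 against 474, 744 and 925).

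Defence genes numbered 13, with 48.2, 49.6 and 36.3 CPM in *flpl1* and at most 0.731 in Col-0. They made up 8.67% of the module, against 6.05% of the genes with at least 10 counts in each *flpl1* library. *GER3*, described above, held 20.5, 22.0 and 1.31 CPM of the group. Several of the defence genes differed widely between the *flpl1* plants. *PR1*, a marker of the salicylic acid response, had 29, 23 and 150 counts in *flpl1* against 0, 0 and 3 in Col-0. The plant defensin genes, markers of the jasmonate and ethylene response, had 27, 120 and 181 counts (*PDF1.2c*), 66, 36 and 58 (*PDF1.2b*) and 59, 19 and 123 (*PDF1.3*) in *flpl1*, against 3, 0 and 0, then 3, 0 and 0, and 2, 0 and 0 in Col-0. All Col-0 counts of these 3 defensin genes were in replicate 1. *PR1* and *PDF1.3* were highest in *flpl1* replicate 3, as was *PDF1.2c*. Their relative *PDF1.2* (AT5G44420) lay outside the module, with 399, 441 and 540 counts in *flpl1* against 27, 3 and 0 in Col-0, the highest again in Col-0 replicate 1. *MES7*, a methyl esterase, had 132, 48 and 14 counts against 3, 0 and 0, an 8.69-fold spread between *flpl1* plants in the opposite order. The thaumatin family genes *ATLP-1* (102, 82 and 46 against 3, 0 and 0) and *AT1G73620* (37, 56 and 55 against 0, 0 and 0) and peroxidase *PRXCA* (29, 50 and 51 against 0, 2 and 0) spread less. Outside the module 172 of 1125 tested defence genes (15.3%) were upregulated and 214 (19.0%) downregulated.

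The GCC box (GCCGCC), bound by ethylene response factors, was in 2 promoters of the module (1.35%, against 1.87% of all coding promoters). One is that of *PDF1.2b*, shown for that motif in capitals.
PDF1.2b (chr2:11088873-11089122, plus strand): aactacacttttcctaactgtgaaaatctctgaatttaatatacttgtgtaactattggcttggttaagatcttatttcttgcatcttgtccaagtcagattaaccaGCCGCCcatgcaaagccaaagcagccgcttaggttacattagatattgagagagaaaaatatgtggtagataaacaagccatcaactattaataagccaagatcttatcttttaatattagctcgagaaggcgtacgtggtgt

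Hormone synthesis and response gave 12 genes, and 7 of them lay on Chr. 2. They made up 8% of the module, against 4.36% of the genes with at least 10 counts in each *flpl1* library. The group held 35.05, 53.0 and 34.1 CPM in *flpl1* and at most 0.325 in Col-0. Most of this was the copper amine oxidase gene *AT1G31690*, described above, with 19.4, 36.2 and 24.3 CPM in *flpl1*. Ethylene synthesis was represented by *ACS11*, an ACC synthase (24, 95 and 26 against 2, 0 and 0), and *ACO1*, an ACC oxidase (10, 25 and 12 against 0, 0 and 0), both highest in *flpl1* replicate 2. The SAUR-like auxin-responsive proteins, a family of early auxin response genes, had 4 members. *SAUR28* had 26, 29 and 18 counts against 1, 0 and 0, *AT2G37030* 17, 13 and 19 against 0, 0 and 0, *AT2G18010* 16, 12 and 10 against 2, 0 and 1 and *AT2G16580* 20, 15 and 19 against 0, 0 and 0. All 4 were low in *flpl1*, with at most 29 counts in a plant. *AT2G14900*, of the gibberellin-regulated family, had 43, 49 and 44 counts against 0, 0 and 2, and the kinase gene *PID2* 34, 17 and 21 against 0, 0 and 3. Of the hormone genes outside the module 160 of 786 tested (20.4%) were upregulated and 111 (14.1%) downregulated, close to the shares over all genes.

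Transcription factors numbered 11 (7.33% of the module, against 5.31% of the genes with at least 10 counts in each *flpl1* library). *AT2G18969* had the most counts, 183, 104 and 97 in *flpl1* against 0, 3 and 0 in Col-0. It shares 459 bp with *AT2G18970* on the opposite strand (25, 8 and 20 counts against 0, 0 and 0), and since the use of the strand in the counting is not stated its value is uncertain. *AGL15*, a MADS-box factor of embryos that represses flowering, had 37, 14 and 16 counts against 0, 0 and 0, and *SPL15*, a factor of the change to the flowering phase, 31, 24 and 15 against 0, 3 and 0. *DPA4*, which limits the serration of leaf margins, had 23, 22 and 29 counts against 0, 0 and 1, and *MYB113*, an activator of anthocyanin synthesis, 28, 16 and 25 against 1, 0 and 0. The lowest spread of all 150 genes was that of the B3 factor gene *AT2G24700* (23, 19 and 21 against 0, 1 and 0), whose CPM differed by 1.01-fold between the *flpl1* plants. *AGL15* is also 1 of 8 listed loci known to be silenced by DNA methylation or Polycomb. Of the other 7, only *QQS* and *BNS* were tested and neither was called, and *FLC* had 0, 0 and 0 counts in *flpl1* against 3, 0 and 1 in Col-0. Outside the module 169 of 1002 tested transcription factor genes (16.9%) were upregulated and 233 (23.3%) downregulated.

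The cytoskeleton and polarity group held 9 genes at 16.7, 18.0 and 9.32 CPM in *flpl1* and at most 0.411 in Col-0. It made up 6% of the module, against 2.05% of the genes with at least 10 counts in each *flpl1* library. The small GTPases *RAC2* (23, 18 and 24 against 0, 0 and 1) and *ROP9* (28, 27 and 12 against 0, 0 and 0) direct polar growth, and *AT3G05470* (76, 99 and 26 against 0, 1 and 0) is a formin, a nucleator of actin. Such genes outside the module were upregulated in 141 of 366 tested (38.5%) and downregulated in 23 (6.28%). Channels and transporters numbered 4 (2.67% of the module, against 4.58% of the genes with at least 10 counts in each *flpl1* library). Such genes were 3.62% of all listed genes and 1.92% of those with at most 3 Col-0 counts, so the direction depends on the background. The 4 included the aquaporins *TIP4;1* (21, 41 and 30 against 0, 0 and 0) and *PIP2;4* (14, 41 and 28 against 1, 1 and 1). The others were the anion channel homologue *SLAH2* (25, 31 and 12 against 0, 0 and 0) and the MATE efflux gene *AT5G49130* (10, 13 and 18 against 1, 2 and 0). Transporter genes outside the module were upregulated in 111 of 849 tested (13.1%) and downregulated in 191 (22.5%). The cell division, wall, cuticle and cytoskeleton groups thus had a larger share upregulated outside the module than all genes, and the defence, transcription factor and transporter groups a smaller one.

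The 10 lists of markers of other tissues and states held 122 genes, of which *MYB83* and *AGL15* were in the module. Of the 44 others tested, 15 (34.1%) were upregulated and 8 (18.2%) downregulated. Of the floral list 3 of 5 tested genes were downregulated and *AG* was upregulated (log2 fold change 1.30, standard error 0.23, edgeR adjusted p = 0.00228), and of the pollen list 2 of 2 were downregulated. *PI*, a floral organ gene, had 0, 1 and 0 counts in *flpl1* against 164, 26 and 24 in Col-0 (log2 fold change -7.13, standard error 1.37, edgeR adjusted p = 0.00316), and *VGD1*, a pectin methylesterase of pollen, 0, 21 and 46 against 322, 514 and 167 (log2 fold change -3.67, standard error 0.85, edgeR adjusted p = 0.00708). *WUS*, *CLV3*, *LFY* and *AP1*, defining genes of shoot and floral meristems, were at 0 in all libraries. In the shoot meristem list 0 of 3 tested genes were upregulated and 1 was downregulated. In the root list 1 of 4 was upregulated and 2 were downregulated. The seed list (1 tested) and the trichome list (5 tested) had 0 upregulated and 0 downregulated genes.

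**Figure D4:**
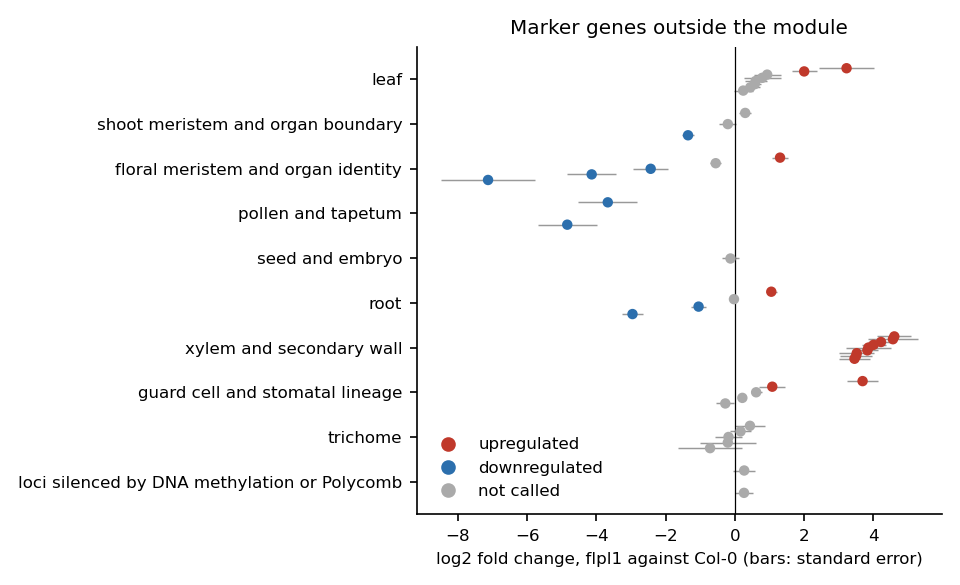
Log2 fold change of each tested marker gene outside the module, with its standard error as a bar, coloured by the edgeR call at an adjusted p under 0.05 and at least 2-fold. The 9 tested genes of xylem and the secondary wall lie at the right with a median of 3.86, and the floral and pollen genes mostly at the left.

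The genes lay on all chromosomes. Chr. 1 held 34, Chr. 2 35, Chr. 3 26, Chr. 4 22 and Chr. 5 33. By role group, Chr. 2 held 7 of 15 cell division genes, 7 of 12 hormone genes and 6 of 13 defence genes. It held 3 of 11 transcription factors, 3 of 9 cytoskeleton genes and 2 of 7 cuticle genes. Of the wall genes it held 1 of 10, and of the channels and transporters 1 of 4. The 35 of Chr. 2, the chromosome with the additional copy, were 23.3% of the module, against 16.4% of all listed genes, 18.3% of those with at most 3 Col-0 counts and 15.4% of those with at least 10 counts in each *flpl1* library. With the floor for genes of Chr. 2 alone raised from 10 to 15 counts, in proportion to the copies, the share was 17.9%, of 140 genes. Such a change can only lower the share. With a floor of 20 counts for all genes it was 26.8%, of 71 genes.

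**Figure D5:**
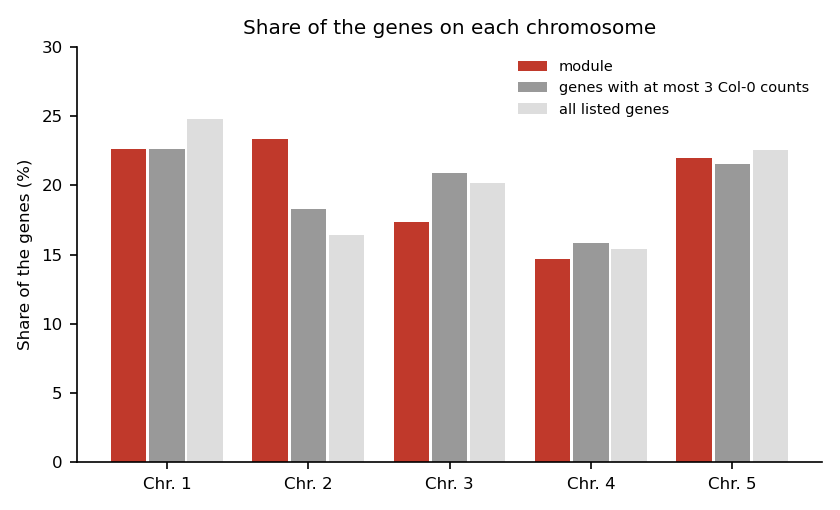
Share of the genes on each chromosome, in percent, for the module (red), the listed genes with at most 3 Col-0 counts (dark grey) and all listed genes (light grey). Chr. 2 holds 23.3% of the module and 16.4% of the listed genes.

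Few of the genes were neighbours. In 4 places no listed gene lay between 2 of them. *PDF1.3* and *PDF1.2b* stand in tandem on Chr. 2, 1305 bp apart. *AT3G08490* (19, 19 and 22 counts against 1, 0 and 0) lies 1578 bp from *MYB83* on Chr. 3. *AT4G14120* (50, 45 and 31 against 2, 1 and 0) and *XTH15* face each other on Chr. 4 with 83 bp between them, and *AT4G32780* (10, 26 and 15 against 0, 0 and 1) lies 158 bp before *AT4G32785* (19, 20 and 18 against 0, 0 and 0). Next to the module, 291 other genes were the nearest on either side. Of these, 192 were tested and 54 (28.1%) were upregulated and 25 (13.0%) downregulated, while the shares over all genes were 19.8% and 14.4%. Outside Chr. 2 it was 39 of 147 (26.5%, against 17.6% of all genes there) and 22 (14.97%, against 15.6%), with a median log2 fold change of -0.01.

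Some values depend on how reads were assigned to copies. *VIM2*, a binding protein of methylated DNA (24, 12 and 11 counts against 0, 0 and 0), is 97.9% identical over 2432 bp to *VIM4*, which had 1, 0 and 0 counts against 0, 0 and 0. *AT1G65710* (35, 24 and 17 against 1, 0 and 0) is 99.3% identical over 407 bp to *AT3G32092*, which had 0 counts in each library. *AT2G16580* is 95.6% identical over 206 bp to *AT1G17780*, which had 389, 302 and 368 counts in *flpl1* against 1024, 1143 and 1087 in Col-0, and it also shares 594 bp with *AT2G16575* (0 counts in each library) on the opposite strand. The other overlaps of the module were at most 71 bp long.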

How the data were processed

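Fully mature leaves of 3 *flpl1* (C30-81-as6) and 3 Col-0 plants were sequenced as 1 RNA-seq library per plant, and groups and replicate numbers follow the labels. The authors trimmed the reads with cutadapt 1.9.1, used HISAT2 for the alignment to TAIR10, and obtained gene counts with HTSeq 0.6.1. The deposited counts are raw read counts per gene. The deposited FPKM values were made by the authors from these counts, the exonic size and the sum of the counts of the library, and 100% lay within 0.01 of the value recomputed here. The handling of overlapping genes and of the strand is not given in the sources used here.

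The members and the lists were chosen with earlier results of these data known, and the role groups were formed from GO terms and descriptions after the counts had been seen. The 20 genes of highest FPKM in *flpl1*, neighbouring members, members in a marker list, families with at least 3 members and the genes at the limits of the rule were named, with the members of the role groups added after their values were seen. Genes outside the module were tested with edgeR 4.0.16 in R 4.3.3 (quasi-likelihood test, TMM, filterByExpr, all 6 libraries, Benjamini-Hochberg over 18638 genes), and DEGs had an adjusted p under 0.05 and at least a 2-fold change. The fit was tested on simulated data. Each p measures the spread between the plants sequenced. Alternatives used DESeq2 1.42.0, limma 3.58.1 on log2(FPKM + 1), other scalings, filters and limits, and each library left out in turn. RefSeq (TAIR10.1) gave names for 149 members, the descriptions used for the role groups, and the promoters. Its genes overlap the deposited positions on every nuclear chromosome. Near-identical copies are BLAST 2.17.0 matches of at least 100 bp and 95% identity. Intervals and bounds cover counting error only. Python 3.11.15 with pandas 2.3.3, scipy 1.17.1 and matplotlib 3.10.9 was used.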

Additional observations from a re-analysis of the deposited data

How the results depend on the processing

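The size of the module follows its limits. It held 40 genes with no Col-0 count allowed, 364 with up to 10 Col-0 counts, 243 with a floor of 5 counts in *flpl1*, 71 with a floor of 20 and 133 with counts scaled to the mean library size. With a library left out, which loosens the rule by construction, it held 166 to 276 genes, the most without Col-0 replicate 1, and all 150 were among them each time. The share on Chr. 2 ranged from 19.6% to 23.9% with a library left out, and was 26.8% with the floor of 20 counts and 17.9% with the floor of 15 counts for genes of Chr. 2. The limit of 15 counts for genes of Chr. 2 and the neighbours outside Chr. 2 were chosen after seeing the data.

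Outside the module, 5 marker genes were downregulated with limma and also with a mean FPKM of at least 1, against 8, and 31 neighbours were upregulated with limma, against 54. Of the marker genes followed singly, *AG* (floral list), *ANX2* (pollen list) and *SHR* (root list) missed the 2-fold limit with limma (log2 differences 0.73, -0.50 and 0.71), and *SHR* also without Col-0 replicate 2 (0.99). The cause was not tested. With a library left out, 13 to 17 marker genes were upregulated and 7 to 8 downregulated, 9 to 10 and 0 to 0 of the xylem list, 46 to 58 and 23 to 28 of the neighbours, and 3498 to 4092 and 2506 to 2922 of all genes. The replicate number as a block gave 3656 upregulated and 2623 downregulated genes, 15 and 8 marker genes, and 52 and 25 neighbours. Same-numbered plants did not deviate together (correlations 0.03, -0.12 and 0.10), so the number is taken as a name only. No value reversed. At this depth a gene counted 3 times or less over Col-0 cannot be told from one that is not transcribed.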
